A study of Mus musculus with 6 samples.

Results

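Carbonic anhydrases interconvert carbon dioxide and bicarbonate, and 10 of their genes were followed here in mouse liver: Car1, Car2, Car3, Car4, Car5a, Car5b, Car8, Car9, Car13 and Car14. They were taken by symbol from a table of 21362 genes, which holds 16 carbonic anhydrase genes in all, and the family was picked because Car3 and Car5a were lower with AAV8-TBG-Cre than with AAV8-TBG-GFP. The members were therefore chosen by the difference in mRNA level between vectors, and their values in that contrast are given as a description, with no p for any of them and with counts of calls once, beside the shares over all genes. Of the 10 members, 8 had enough counts to enter the fit across 13431 genes, while Car4 and Car9 did not. The other 6 genes of the family, Car6, Car7, Car10, Car11, Car12 and Car15, are given beside them.

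RNA-seq was done on the livers of 6 male mice, 3 in each group. Every mouse, controls included, carried floxed Mettl14 alleles (Mettl14f/f, C57BL/6J background), ate a high-fat diet (HFD) from 8 weeks of age, received a vector into the tail vein after 10 weeks of HFD, and gave its liver 8 weeks after the vector. AAV8-TBG-Cre carries Cre under a thyroxine-binding globulin promoter, which limits recombination to hepatocytes, and AAV8-TBG-GFP was the control. The whole liver was sequenced, so the RNA of cells that kept Mettl14 is part of every library. Mettl14, which encodes a subunit of the RNA m6A methyltransferase, had 124, 126 and 111 counts in the livers labelled AAV8-TBG-GFP and 104, 131 and 101 in those labelled AAV8-TBG-Cre. Its log2 fold change was -0.29 (SE 0.15, adjusted p = 0.337, edgeR's quasi-likelihood test with Benjamini-Hochberg adjustment), and it did not pass. After scaling, the Cre livers lay below the GFP livers (4.86 to 5.38 against 5.81 to 6.43 CPM, counts scaled to a library of fixed size), while in FPKM the groups overlapped.

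The libraries held between 20356440 and 21010508 counts. Hepatocyte markers were abundant in every library, with a summed level of 108396 to 135522 CPM with GFP and 92944 to 114505 with Cre, and Alb, encoding albumin, was the highest of them. Library names came in a short form (GFP livers 1 and 2, Cre liver 1) and a long form (GFP liver 3, Cre livers 2 and 3), and what the forms stand for was not given in the sources used here. CPM values were scaled by edgeR's TMM factors. FPKM, which also divides by transcript length, was used wherever levels of different genes were set side by side.

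Carbonic anhydrase isozymes share one fold and differ in where they act. Car1, Car2, Car3 and Car13 encode cytosolic enzymes, Car5a and Car5b mitochondrial ones, and Car4, Car9 and Car14 enzymes that face the outside of the cell from its membrane. The catalytic zinc is held by 3 histidines in the active enzymes, and Car8 encodes a carbonic anhydrase-related protein that lacks one of them and does not hydrate carbon dioxide. In hepatocytes the mitochondrial enzyme is known to supply bicarbonate for the carboxylation steps that open ureagenesis and gluconeogenesis. Car3 is a low-activity isozyme that is abundant in liver, fat and slow muscle, and in rat liver it is known for higher levels in males.

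The coding sequence around the first pair of these histidines is shown for the members on which the values below turn, because it separates the enzymes from Car8. Capitals mark the codons of the first zinc-binding pair, at codon 94 of the Car2 coding sequence and its counterparts, read 5′ to 3′ from the coding strand of GENCODE vM1 transcripts on NCBIM37.
Car3: cgccaattcCATcttCACtggggctcc
Car5a: aagcagtttCATttcCACtggggagca
Car2: atccagtttCACtttCACtggggctca
Car8: tatgaagttAGAtttCACtggggaaga
The windows cover bases 271 to 297 of the Car3 and Car2 coding sequences, 361 to 387 of Car5a and 340 to 366 of Car8, each 27 bases long. Both capital triplets were histidine codons (CAC or CAT) in 9 of the 10 members. Car8 was the exception, with AGA, an arginine codon, at the first position. Over the 45 pairs of members, the longest identical run between transcripts lay between 10 and 32 bases, the longest being that of Car5a with Car5b, whose coding sequences were identical at 66.4% of aligned bases.

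Car3 was by far the most abundant member. In the GFP livers its FPKM was 2434, 2371 and 1869, and in the Cre livers 1124, 782 and 408, which placed it 35th among all genes by mean FPKM with GFP and 87th with Cre. In CPM it measured 3857, 3820 and 3135 with GFP (3604 ± 406, SD, n = 3) and 1686, 1017 and 632 with Cre (1111 ± 534, SD, n = 3). Every Cre liver was below every GFP liver, Cre liver 3 was the lowest, and the level with Cre was 3.24-fold lower (log2 fold change -1.70, SE 0.35). Fewer cells of a type and less RNA per cell cannot be told apart in whole liver, here or in any value that follows. Leaving out Cre liver 1 gave -2.13 and leaving out Cre liver 3 gave -1.42, the extremes over 16 alternative settings.

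Car3 also set the level of the family as a whole. The summed FPKM of the 16 carbonic anhydrase genes was 2556, 2492 and 1977 with GFP and 1239, 875 and 486 with Cre. Car3 made up 95.3%, 95.2% and 94.5% of it with GFP, against 90.7%, 89.5% and 84.0% with Cre. The remaining 15 genes summed to between 109 and 121 FPKM with GFP and between 77.8 and 115 with Cre, so the groups overlapped once Car3 was taken out. The ratio of Car3 to Car5a FPKM was 28.4 to 30.0 in the GFP livers and 9.37 to 18.1 in the Cre livers, without overlap.

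Car5a, the mitochondrial isozyme of hepatocytes, came second. It had 107, 109 and 84.4 CPM with GFP (99.99 ± 13.5, SD, n = 3) and 88.8, 45.3 and 54.4 CPM with Cre (62.8 ± 22.9, SD, n = 3), a 1.59-fold lower mean in the fit (log2 fold change -0.67, SE 0.25). The groups overlapped, because Cre liver 1 was above GFP liver 3. Cre livers 2 and 3 were below all 3 GFP livers. The log2 fold change ran from -1.01 without Cre liver 1 to -0.49 without Cre liver 2. Car5b, the mitochondrial isozyme of wider tissue distribution, had 3.56, 3.11 and 5.29 CPM with GFP and 4.72, 3.61 and 3.27 with Cre. The Car5b groups overlapped fully (log2 fold change -0.04, SE 0.26), and its direction changed in 7 of the 16 alternatives.

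Car2, the fast cytosolic isozyme, went the other way. It measured 3.66, 4.39 and 6.44 CPM with GFP (4.83 ± 1.44, SD, n = 3) and 8.45, 15.4 and 9.77 CPM with Cre (11.2 ± 3.72, SD, n = 3). All Cre livers were above all GFP livers, Cre liver 2 was the highest, and the level with Cre was 2.33-fold higher (log2 fold change 1.22, SE 0.29). The log2 fold change was 0.91 without Cre liver 2 and 1.47 without GFP liver 3. Car13, another cytosolic isozyme, was scarce, at 7, 9 and 12 counts with GFP and 18, 35 and 9 counts with Cre. Its log2 fold change of 0.93 (SE 0.50) went down to 0.42 without Cre liver 2, and Cre liver 3 lay within the GFP range.

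Car1, the isozyme best known from red blood cells and colon, had 3.46, 6.73 and 4.55 CPM with GFP and 3.58, 2.83 and 1.16 CPM with Cre. The groups overlapped at Cre liver 1, and the log2 fold change was -0.96 (SE 0.42), from -1.29 without Cre liver 1 to -0.62 without Cre liver 3. With GFP, Car1 was above Car2 in FPKM in each liver, with a ratio of Car2 to Car1 of 0.426 to 0.926. With Cre the ratio was 1.53, 3.57 and 5.46, so that Car2 was the higher gene in each Cre liver.

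**Figure D1:**
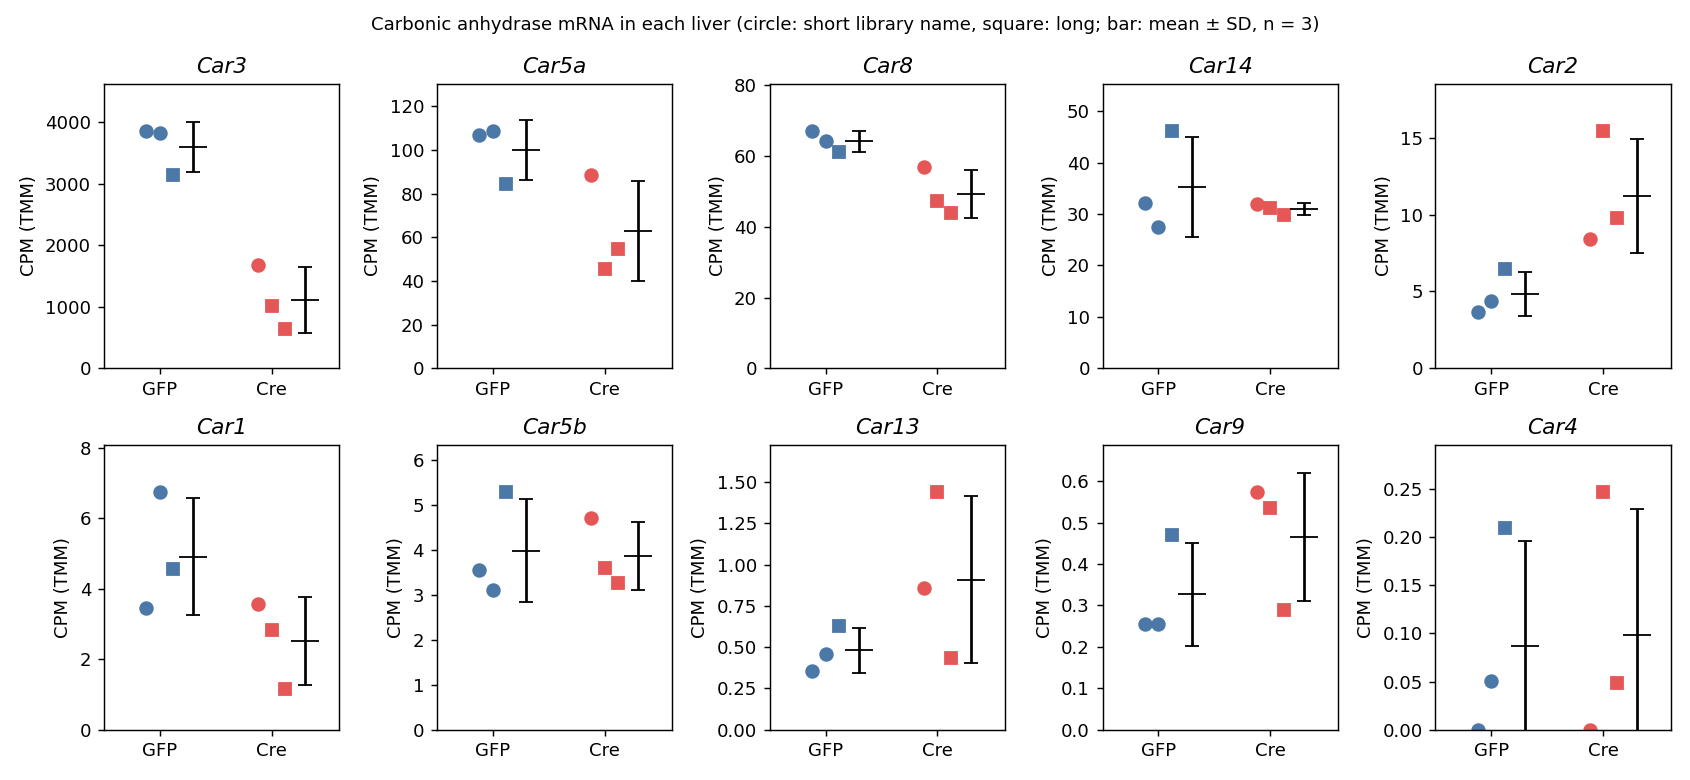
CPM (linear axis from 0, TMM scaled) of the 10 carbonic anhydrase members, 1 point per liver, with circles for short and squares for long library names and bars for the mean ± SD of 3 livers, drawn down to 0 at most. Car3 and Car8 with Cre lie below all GFP livers, Car2 with Cre lies above them, and the groups overlap for Car5a and the other members.

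Car8, the non-catalytic relative, differed less between the groups and also varied less within them. It had 67.1, 64.3 and 61.1 CPM with GFP (64.2 ± 2.97, SD, n = 3) and 57.0, 47.3 and 43.9 CPM with Cre (49.4 ± 6.77, SD, n = 3), a 1.30-fold lower level (log2 fold change -0.38, SE 0.12). The separation of the groups rested on the scaling: in FPKM the GFP livers had 11.2, 10.5 and 9.62 and the Cre livers 10.0, 9.60 and 7.50, which overlap.

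Of the membrane enzymes, Car14 alone was well expressed. Its CPM was 32.1, 27.4 and 46.1 with GFP and 31.9, 31.2 and 29.8 with Cre, with GFP liver 3 above the rest. The log2 fold change of -0.19 (SE 0.18) turned to 0.05 without GFP liver 3 and had the other sign in 4 of the 16 alternatives. Car9, which hypoxia is known to induce, had 5, 5 and 9 counts with GFP and 12, 13 and 6 with Cre. Car4, which is anchored to the membrane by a lipid, had 0, 1 and 4 counts with GFP and 0, 6 and 1 with Cre. A count of 0 allows up to 3 counts by counting error alone, which is 0.123 to 0.157 CPM in these libraries, so Car4 was at the limit of detection in both groups.

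Across the 8 members in the fit, 6 had a negative log2 fold change, against 51.0% of all 13431 genes, and the median was -0.28, against -0.01 over all genes. That median turned to 0.045 without GFP liver 3 and to 0.022 with limma on unfiltered FPKM, fits in which 9 and 10 members entered. At the threshold used in the study, an unadjusted p under 0.05 with a fold of at least 1.2, 3 members were lower (Car3, Car5a and Car8) and 1 was higher (Car2), while 20.5% of all genes passed, 8.41% lower and 12.0% higher. At an adjusted p under 0.05, edgeR's quasi-likelihood test with Benjamini-Hochberg adjustment called 0 of the 8 members and 0.931% of all genes. DESeq2 called Car2 and Car3 of 10 members and 1157 of 18419 genes, and limma called 0 of 7 members and 22 of 12138 genes. The same totals over all genes apply to the DESeq2 and limma calls between vectors in the lists below. Every Cre liver was below every GFP liver in CPM for 2 members (13.0% of all genes) and above for 1 (14.0% of all genes). Nothing is read from these counts, since the contrast between vectors chose the members.

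**Figure D2:**
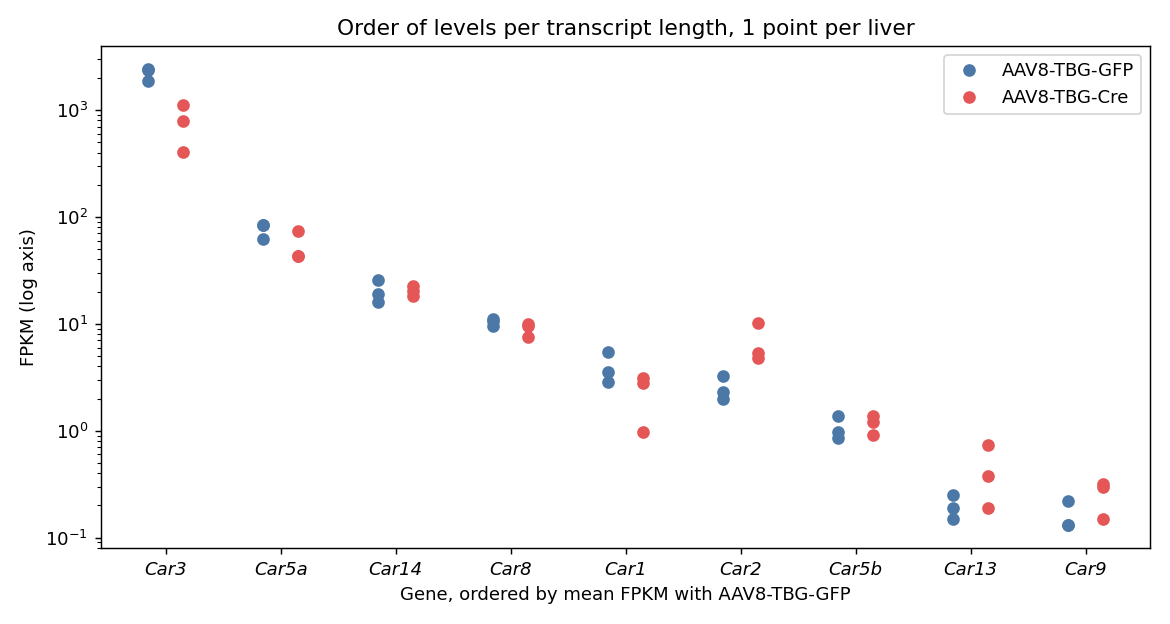
FPKM on a log axis for 9 carbonic anhydrase members in order of their mean with AAV8-TBG-GFP, 1 point per liver, with Car4 left out because it is listed at 0 in some livers. Car3 stands at 408 FPKM or more in every liver, Car5a between 43.2 and 83.6, and Car2 passes above Car1 in the Cre livers.

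Per transcript length, the order with GFP was Car3 (2225 ± 310 FPKM, SD, n = 3), Car5a (76.5 ± 12.3), Car14 (20.4 ± 5.06), Car8 (10.4 ± 0.779), Car1 (3.92 ± 1.34), Car2 (2.51 ± 0.667), Car5b (1.07 ± 0.276), Car13 (0.197 ± 0.0503), Car9 (0.160 ± 0.0520) and Car4 (0.0633 ± 0.0777). The ranges of neighbours in this order did not overlap down to Car8 and Car1. Car1 and Car2 overlapped (2.84 to 5.42 against 1.96 to 3.25 FPKM), as did Car13 with Car9 and Car9 with Car4. With Cre the same order held for the first 4 genes, and Car2 (6.73 ± 2.91 FPKM) moved ahead of Car1 (2.31 ± 1.16). The relative spread between livers was wider with Cre for the 2 leading genes, with a coefficient of variation of 46.4% against 13.9% for Car3 and 32.4% against 16.1% for Car5a.

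Among the genes outside the 10 members, Car7, a cytosolic isozyme, was the highest, at 0.703 ± 0.196 FPKM with GFP and 0.627 ± 0.167 with Cre (SD, n = 3). Car7 (log2 fold change -0.41, SE 0.34, adjusted p = 0.540) and Car11, a further non-catalytic relative (-0.34, SE 0.48, adjusted p = 0.736), did not pass edgeR's quasi-likelihood test with Benjamini-Hochberg adjustment. Car15 was too scarce for the fit, with 7, 10 and 16 counts with GFP and 6, 3 and 7 with Cre. Car6, Car10 and Car12 had between 0 and 2 counts in each liver.

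Genes of one chromosomal cluster differed in sign. Car13, Car1, Car3 and Car2 form a cluster on chromosome 3 of GRCm38.p6, the names and positions being those of RefSeq and the build matching the mm10 of the submitters' processing notes. Car13 spans 14641727 to 14663002, Car1 14766214 to 14808365, Car3 14863538 to 14872381 and Car2 14886269 to 14900770, in all 259 kb. Car3 and Car2 are neighbours separated by 13.9 kb, and their log2 fold changes were -1.70 and 1.22. Car1, 55.2 kb before Car3, had -0.96, the same sign as its neighbour, and Car13, a further 103 kb away, had 0.93.

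**Figure D3:**
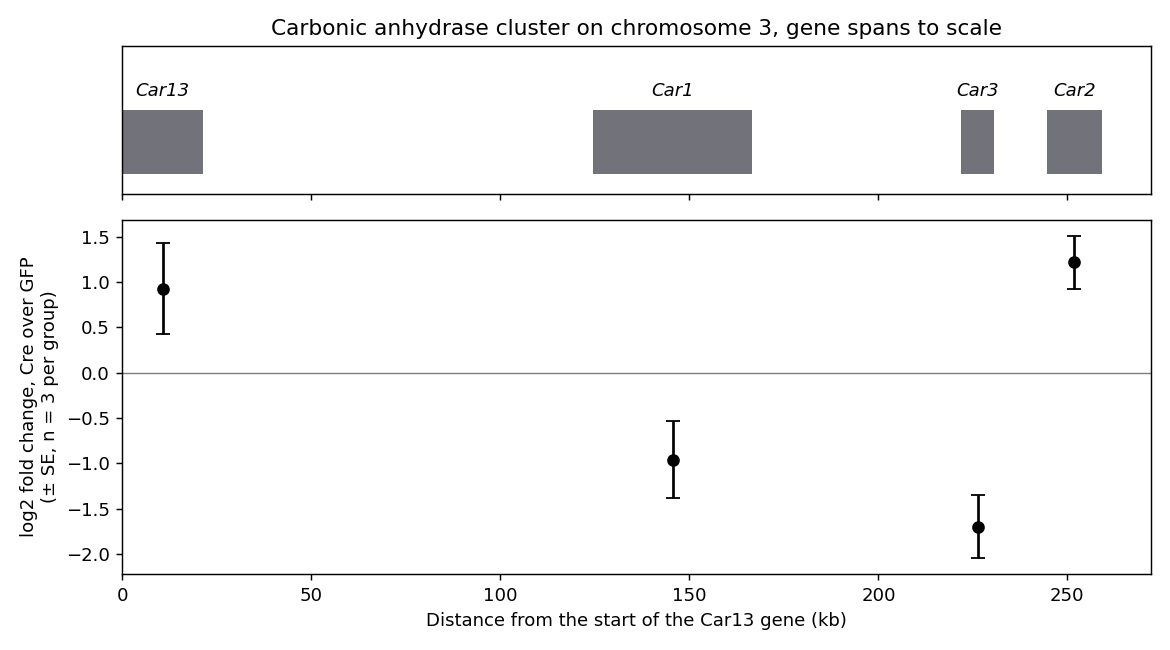
The upper panel draws the spans of the 4 clustered carbonic anhydrase genes to scale by distance in kb from the start of Car13, and the lower panel gives their log2 fold change, Cre over GFP, ± SE (n = 3 per group). Car3 at -1.70 and Car2 at 1.22 are neighbours with opposite signs, and Car13 and Car2, the outer genes, are above 0.

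The other members are single genes elsewhere: Car14 on chromosome 3 at 95897768 to 95905117, Car8 on chromosome 4 at 8141493 to 8239041, Car9 on chromosome 4 at 43507026 to 43513729, Car5a on chromosome 8 at 121916135 to 121944912, Car4 on chromosome 11 at 84957754 to 84966054 and Car5b on chromosome X at 163976822 to 164028010. Values of all genes are counts over spliced transcripts. Car14 overlaps Aph1a, which had a mean of 2042 counts, and Car9 overlaps Tpm2 and Arhgef39, with 197 and 11.0 counts. Car5a overlaps the lncRNA BC048644, with 56.6 counts. Whether the counting used strand was not given in the sources used here, so reads in these overlaps are uncertain, most of all for Car9 and Car14. The deposited estimates for Car2, Car3 and Car13 were whole numbers in all 6 livers, while those for Car5a, Car5b, Car8 and Car14 were fractional in all 6, which RSEM gives where fragments are divided among transcripts. Car1 was divided between 2 transcripts, NM_001083957 and NM_009799, and only their sum was used.

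The form of the library name was tested in a fit with the vector as the other term. It was not itself used to choose the members, but the long form held more Cre than GFP livers. The difference between vectors that chose them therefore held part of any difference between forms. With the form in the fit, the vector difference moved from -0.67 to -0.52 for Car5a and from -1.70 to -1.56 for Car3. The choice could thus favour genes that differ between forms, and the counts of members are given as a description. Car5a was lower with the long form (log2 difference -0.59, SE 0.14, unadjusted p = 0.00312), with an adjusted p of 0.0920 by edgeR's quasi-likelihood test with Benjamini-Hochberg adjustment, so it did not pass. Car3 (-0.66, SE 0.26, adjusted p = 0.257) and Car2 (0.63, SE 0.22, adjusted p = 0.212) did not pass the same edgeR test either. In all, 0 of 8 members passed, against 1.39% of all genes, and 3 of 8 had an unadjusted p under 0.05, against 16.9% of all genes. DESeq2 called 1 of 10 members, Car5a (adjusted p = 0.00930, with a range over edgeR settings and limma of 0.0548 to 0.0920), and limma called 0 of 7. For this comparison the shares over all genes by DESeq2 and limma are not given here.

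The same 6 livers can be set out by name form, as a description. Within the short form, where 1 Cre liver stood against 2 GFP livers, the log2 ratio of mean CPM was -1.19 for Car3, -0.28 for Car5a and 1.07 for Car2. Within the long form, with 2 Cre livers against 1 GFP liver, it was -1.93 for Car3, -0.76 for Car5a and 0.97 for Car2. With the name form in the fit, the vector difference was -1.56 (SE 0.26) for Car3, -0.52 (SE 0.14) for Car5a, 1.02 (SE 0.22) for Car2 and -0.31 (SE 0.10) for Car8.

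**Figure D4:**
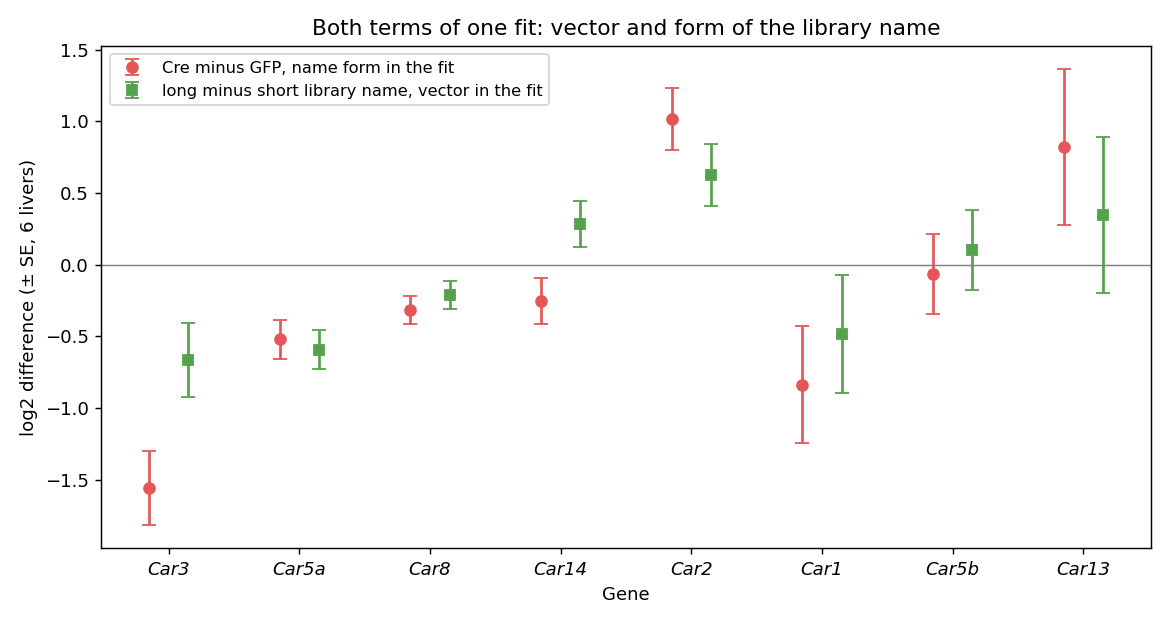
Log2 differences ± SE over 6 livers for the 8 carbonic anhydrase members tested, from a fit that holds both terms, with red circles for Cre minus GFP and green squares for long minus short library name. For Car3 the vector term (-1.56) is the larger, while for Car5a the terms are -0.52 and -0.59.

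Genes with the pattern closest to Car3 over the 6 livers were sought among 11296 genes with a mean log2 CPM of at least 1. By Pearson's r of log2 CPM these were Slc23a2 (0.998), Chrnb2 (0.996), Phkb (0.995), Rcc1 (0.992) and Lrit2 (0.991), and 129 genes reached 0.95. The livers share the 2 vector groups and the 2 name forms, and what lies behind these high r values was not tested. After the group means were taken out, 113 genes reached 0.95. The closest were then Timeless (0.998), E2f5 (0.998), Ap5m1 (0.997), Sms (0.996) and Fam98c (0.994), none of them in the first set. Within the family, Car8 was the closest to Car3 (r = 0.985, rank 11), ahead of Car5a (0.887) and Car1 (0.866), and Car2 ran opposite (-0.85). With the group means taken out, r with Car3 was 0.964 for Car8, 0.801 for Car1, 0.732 for Car5a and -0.33 for Car2.

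For Car5a the closest were Iqgap2 (0.998), Ghr (0.997), Acp1 (0.997), Khk (0.996) and Ext1 (0.996), and 326 genes reached 0.95. After the group means were taken out, 360 genes reached 0.95. Txn1, N4bp2l1, Khk, Kxd1 and Qdpr then led, all with r of at least 0.998, and Khk, encoding the ketohexokinase of fructose metabolism, was in both sets. Khk had 340 CPM with GFP and 202 CPM with Cre, with overlapping groups (log2 fold change -0.75, adjusted p = 0.251 by edgeR's quasi-likelihood test with Benjamini-Hochberg adjustment).

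The enzymes that use bicarbonate were examined next. Of 9 genes, all in the fit, 0 passed an adjusted p under 0.05 by edgeR's quasi-likelihood test with Benjamini-Hochberg adjustment and 1, Cps1, passed the study's threshold, where 0.931% and 20.5% of all genes did. DESeq2 called Cps1 at an adjusted p under 0.05 and limma called none of them. Cps1, the mitochondrial carbamoyl phosphate synthetase that opens the urea cycle, had 2418 ± 568 CPM with GFP and 4042 ± 942 CPM with Cre (SD, n = 3). All Cre livers were above all GFP livers (log2 fold change 0.74, SE 0.27, unadjusted p = 0.0248, adjusted p = 0.177 by edgeR), and the list had 0 calls at the study's threshold without GFP liver 1 and 5 without Cre liver 1. Acacb, the mitochondrial acetyl-CoA carboxylase, had 96.9 ± 52.0 and 38.7 ± 27.6 CPM with overlapping groups (log2 fold change -1.32, SE 0.57, adjusted p = 0.239 by edgeR).

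The remaining carboxylases differed less. Pccb of propionyl-CoA carboxylase was at -0.27 on the log2 scale (adjusted p = 0.330, edgeR's quasi-likelihood test with Benjamini-Hochberg adjustment), Pcx, the pyruvate carboxylase of gluconeogenesis, -0.26 (adjusted p = 0.483), and Cad of pyrimidine synthesis 0.06. The median of the list was -0.23, against -0.01 over all genes. Among 10 urea cycle and ammonia genes, Cps1 and Slc25a15, the mitochondrial ornithine carrier (log2 fold change 0.45), passed the study's threshold upward (12.0% of all genes), and Glul, glutamine synthetase (-0.80), downward (8.41% of all genes). None of the 10 passed edgeR's adjusted threshold, whereas DESeq2 called Cps1 and Glul and limma called none. Otc had a log2 fold change of -0.03.

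Transporters of bicarbonate move the ion across membranes. Of 16 genes, 8 were in the fit, with a median log2 fold change of 0.01, and 0 passed an adjusted p under 0.05 by edgeR's quasi-likelihood test with Benjamini-Hochberg adjustment. Slc4a3, an anion exchanger, was the only one of the 8 past the study's threshold, against 20.5% of all genes, at 0.768 ± 0.327 CPM with GFP and 2.69 ± 1.32 CPM with Cre (log2 fold change 1.81, SE 0.46, adjusted p = 0.0891 by edgeR), and DESeq2 called it while limma, which kept 6 genes, called none. The liver's main sodium bicarbonate cotransporter Slc4a4 had 133 ± 55.6 and 147 ± 53.2 CPM (log2 fold change 0.14), and Slc4a8 had -0.37 and Slc26a6 -0.11, none past a threshold between vectors. Slc4a4 was higher with the long library name (log2 difference 0.98, SE 0.12, adjusted p = 0.0190 by edgeR), where 1.39% of all genes passed. With the name form in the fit, its vector difference was -0.18 (SE 0.11). Slc26a9 was at 0 in every liver.

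Of 12 transporters of protons and lactate, 9 were in the fit, with a median log2 fold change of 0.03. The lactate exporter Slc16a3 (0.94, adjusted p = 0.264) and the sodium/proton exchanger Slc9a9 (0.47, adjusted p = 0.271) did not pass edgeR's quasi-likelihood test with Benjamini-Hochberg adjustment, although their Cre livers lay above the GFP livers. Slc9a3r1, encoding a scaffold protein of the exchangers, had a log2 fold change of -0.41 with overlapping groups (adjusted p = 0.452 by edgeR). Slc9a3 was at 0 in every liver.

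**Figure D5:**
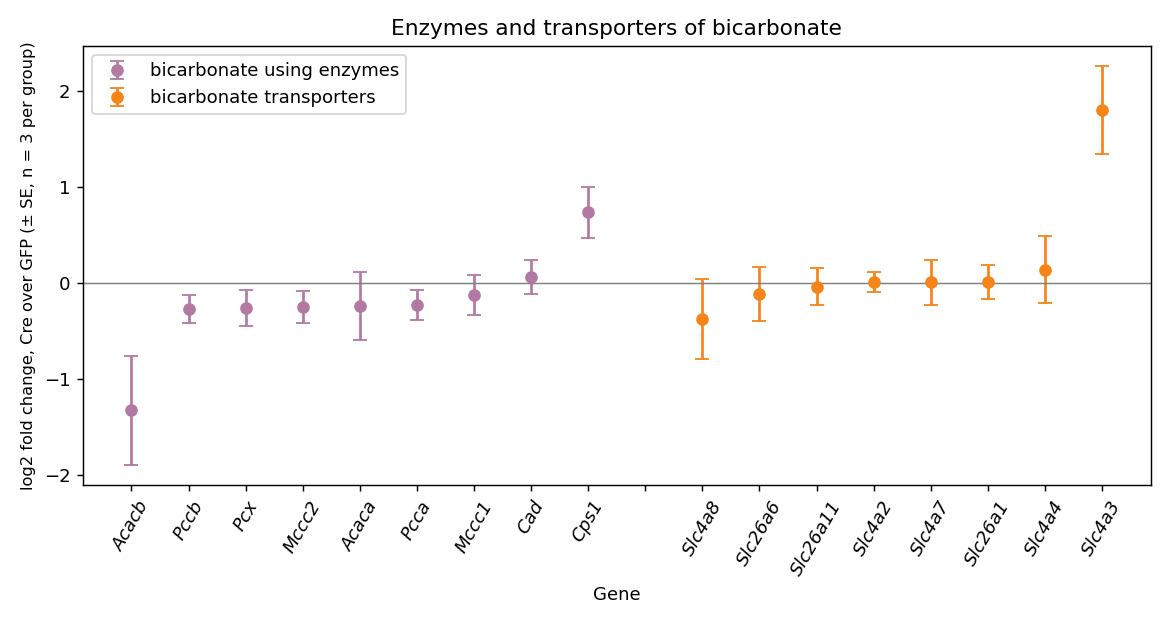
Log2 fold change, Cre over GFP, ± SE (n = 3 per group) for the 9 bicarbonate using enzymes and the 8 bicarbonate transporters that entered the fit, ordered by value within each list. Cps1 at 0.74 and Slc4a3 at 1.81 are the highest of their lists, Acacb at -1.32 is the lowest, and the others lie between -0.37 and 0.14.

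Since Car3 is known to be higher in male than in female rat liver, lists of sex-biased liver genes were set beside it. Of 13 male-biased genes, Elovl3, a fatty acid elongase, fell from 63.4 ± 10.9 to 13.6 ± 3.20 CPM (log2 fold change -2.22, SE 0.20, adjusted p = 0.0149 by edgeR's quasi-likelihood test with Benjamini-Hochberg adjustment). Elovl3 was the single gene of the list to pass by edgeR, against 0.931% of all genes, and by limma, while DESeq2 also called Hsd3b5 downward and Cyp4a12b upward. It no longer passed without GFP liver 2 (adjusted p = 0.0836 by edgeR) or Cre liver 2 (0.0559), with a range of 1.26e-19 to 0.0836 over all alternatives. At the study's threshold 3 of the 13 were lower, Elovl3, Hsd3b5 (-4.14) and Cyp2u1 (-0.996), against 8.41% of all genes. Cyp4a12b (1.99) was the 1 gene higher, against 12.0% of all genes, and Serpina1e was at 1.22 without passing. Hsd3b5 had 26.4, 42.8 and 2.20 CPM with GFP and 1.67, 0.370 and 2.07 CPM with Cre, and its groups overlapped in FPKM. Within the long name form its log2 ratio of mean CPM was -0.85, against -4.37 within the short form. Of the 13 genes, 10 had a negative log2 fold change, and the median was -0.37, against -0.01 over all genes.

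Of 12 female-biased genes, 7 were in the fit and 0 passed the adjusted threshold of edgeR, with 3 past the study's threshold, where 0.931% and 20.5% of all genes passed. Cyp2b13 (log2 fold change -4.41) and Cyp2b9 (-1.87) were lower and Cyp2a4 (1.86) was higher. DESeq2 called Cyp2a4 and Cyp2b13 at an adjusted p under 0.05, and limma called none. The median of the 7 was -0.59.

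Zonation lists were added because Glul and Cps1 mark opposite ends of the liver lobule. Of 12 pericentral genes, 3 passed the study's threshold, all lower with Cre (8.41% of all genes): Cyp1a2 (log2 fold change -0.77), Slc1a2 (-0.52) and Glul (-0.80). None of the 12 passed an adjusted p under 0.05 by edgeR, DESeq2 called those 3 and limma none, and Oat (0.26) and Axin2 (0.20) were the leading genes upward. Of 12 periportal genes, 4 passed the study's threshold, all higher with Cre (12.0% of all genes): Cps1 (0.74), Aldh1b1 (0.70), Cdh1 and Sox9. Cdh1, encoding E-cadherin, rose from 19.96 ± 3.54 to 70.4 ± 6.94 CPM (log2 fold change 1.82, adjusted p = 0.0149 by edgeR's quasi-likelihood test with Benjamini-Hochberg adjustment) and Sox9 from 9.09 ± 1.56 to 28.1 ± 9.52 CPM (1.63, adjusted p = 0.0454 by edgeR). These 2 alone passed the adjusted threshold of edgeR, against 0.484% of all genes upward, while DESeq2 called Cdh1, Cps1 and Sox9 and limma called Cdh1. Cdh1 and Sox9 are also expressed by bile duct cells. Cdh1 passed in 13 of 16 alternatives, and with edgeR its adjusted p was 0.0827 without GFP liver 2 and 0.0559 without Cre liver 2. Sox9 passed in 4 of 16, and without any single liver other than Cre liver 1 its adjusted p by edgeR was 0.0930 to 0.174. The median log2 fold change was -0.25 over the pericentral and 0.38 over the periportal list, against -0.01 over all genes. Cyp2f2 (-0.37) and Pck1 (-0.24), which are periportal enzymes of hepatocytes, did not pass, with overlapping groups.

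Car2 and Car13 had their highest values in Cre liver 2, as did the markers of bile duct cells. The summed CPM of 9 cholangiocyte markers was 72.2 to 128 with GFP and 306 to 574 with Cre, the highest being Cre liver 2. Of the 8 markers in the fit, all had a positive log2 fold change and all passed the study's threshold upward, against 12.0% of all genes. At an adjusted p under 0.05, edgeR's quasi-likelihood test called 3 (Cldn4, Sox9 and Spp1), against 0.484% of all genes upward. DESeq2 called 7 of 9 and limma 0 of 7. Spp1 was the most abundant, at 66.8 ± 26.1 CPM with GFP and 324 ± 121 CPM with Cre. Macrophage markers summed to 254 to 294 CPM with GFP and 398 to 613 CPM with Cre, Cd5l being the highest with GFP and Lyz2 with Cre. Of 10, 7 passed the study's threshold upward, Cd5l alone passed the adjusted threshold by edgeR and 5 passed by DESeq2. Stellate cell and fibroblast markers summed to 235 to 358 and 432 to 908 CPM, Dcn being the highest with GFP and Col3a1 with Cre. Of 10, 4 passed the study's threshold upward, 0 passed the adjusted threshold by edgeR and 4 passed by DESeq2. Both lists were again highest in Cre liver 2, and the shares over all genes are those given for the bile duct markers. The part of these cell types in the Car2 and Car13 values was not tested.

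Red blood cells hold Car1 and Car2. Erythroid markers summed to 480 to 848 CPM with GFP and 438 to 945 CPM with Cre, led by Hba-a1, and of 6 in the fit 0 had an unadjusted or adjusted p under 0.05 by edgeR or DESeq2. The highest sums were those of Cre liver 2 and GFP liver 1. Car2 was highest in Cre liver 2, and Car1 in GFP liver 2. The part of red blood cells in the Car1 and Car2 values was not tested.

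Fat and slow muscle express Car3 strongly. Adipocyte markers summed to 85.6 to 115 CPM with GFP and 28.6 to 64.0 CPM with Cre. Of 6 tested, 2 were lower at an adjusted p under 0.05 (Cfd and Cidea, edgeR's quasi-likelihood test with Benjamini-Hochberg adjustment), against 0.447% of all genes. Cidec, a lipid droplet gene that fatty hepatocytes also express, was the most abundant. Cfd had a mean of 18.1 CPM with GFP and 0.668 with Cre, and Cidea 8.97 and 0.431. Fabp4 had 9.50 and 10.2 CPM and Adrb3 11.5 and 8.13. The other 5 markers were under 1 CPM in both groups, among them Adipoq (0.275 and 0.495), Lep (0.393 and 0.677) and Plin1 (0.208 and 0.249). Skeletal muscle markers summed to 0.712 to 1.204 CPM with GFP and 0.716 to 0.821 CPM with Cre, with Ckm, Myh1, Myh2, Myh4 and Tnnt3 at 0 in every liver, and none entered the fit. Tnnt1 was the highest of them with GFP and Mylpf with Cre. The part of either tissue in the Car3 values was not tested.

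The remaining lists covered endothelial and immune cells. Endothelial markers, led by Eng, summed to 218 to 367 CPM with GFP and 231 to 275 CPM with Cre. All 10 were in the fit with a negative log2 fold change, against 51.0% of all genes, and their median was -0.31. Stab2 (-0.32) alone passed the study's threshold, downward (8.41% of all genes), and 0 passed the adjusted threshold by edgeR, DESeq2 or limma. Neutrophil markers, led by Ly6g with GFP and Csf3r with Cre, summed to 15.3 to 16.9 and 22.5 to 22.6 CPM. Of 5 in the fit, 3 passed the study's threshold upward (12.0% of all genes) and 1, Ly6g, downward (8.41% of all genes). Ly6g had a mean of 5.39 CPM with GFP and 3.77 with Cre (log2 fold change -0.52), every Cre liver below every GFP liver. S100a8 alone passed the adjusted threshold of edgeR, against 0.931% of all genes. Markers of T and NK cells summed to 3.19 to 5.203 and 3.95 to 6.41 CPM, led by Cd4 with GFP and Cd8a with Cre, and markers of B cells to 6.54 to 7.12 and 7.60 to 19.3 CPM, led by Jchain. Their part in the carbonic anhydrase values was not tested.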

How the data were processed

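Livers of 6 mice were assigned to groups by the vector in their titles. The authors deposited expected counts per transcript, without normalization, and FPKM per transcript and gene. The submitters' processing notes name HISAT2, Bowtie2, RSEM and mm10, whereas the study's methods name STAR, HTSeq and DESeq2; the annotation was not given in the sources used here. Expected counts were summed per NCBI gene and rounded. Genes were tested with edgeR 4.0.16 (R 4.3.3; quasi-likelihood, TMM, filterByExpr, vector as factor), over 13431 genes. SEs came from the quasi-F statistic. Values with n = 3 permit no exact permutation p below 0.1. Steps were tested on simulated data. Alternatives (16) included DESeq2 1.42.0 and limma 3.58.1 on log2(FPKM + 1). Livers of one group always differed by more than sampling noise. Members, lists and tests were chosen with earlier results of these data known. Named were all carbonic anhydrases, Mettl14, per list every gene past an adjusted p of 0.05 and otherwise the 2 smallest p in each direction, the 5 genes most like Car3 and Car5a, and the highest and absent markers. Pcx, Cyp2u1, Aldh1b1, some of the called markers and further adipocyte markers were named after their values were seen. Whether mice were littermates was not given in the sources used here, and p-values measure the spread between these livers. Intervals and floors cover counting error only. Some genes that this rule names are not reported here.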

Additional observations from a re-analysis of the deposited data

How the results depend on the processing

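Car1, Car2, Car3, Car5a and Car8 kept the sign of their log2 fold change in all 16 alternatives, and Car13 in the 13 that could fit it. The count of all genes at an adjusted p under 0.05 was 125 and moved to 1157 with DESeq2, 76 with at least 10 counts in every library, 372 with no filter, 66 with upper quartile scaling, 214 with the name form as covariate, 27 and 22 with limma on log2(FPKM + 0.1) and log2(FPKM + 1), and 9 with the latter unfiltered. Leaving out 1 liver gave 0 (without GFP liver 2 or Cre liver 2), 7 (GFP liver 1), 16 (GFP liver 3), 17 (Cre liver 3) and 928 (Cre liver 1); at the study's threshold it gave 1899 to 3730, against 2747. Replicate numbers did not pair the livers: same-numbered deviations correlated at 0.00915, -0.26 and 0.209, and with the replicate block 7 genes passed. Of the genes called at the study's threshold, 58.9% were higher with Cre, against 72.3% with upper quartile scaling and 83.7%, 84.1% and 84.7% with limma on log2(FPKM + 1), on log2(FPKM + 0.1) and unfiltered, where the first 2 moved the median of all genes to 0.11 and 0.14. The median over the members was -0.28, reversed to 0.022 with limma unfiltered (10 members), and over the fits that leave out 1 liver ran from -0.35 without Cre liver 1 to 0.045 without GFP liver 3, where 9 members entered. Calls among bicarbonate transporters went from 1 to 0 with the 10-count minimum and both limma fits with the filter. Calls among bicarbonate using enzymes went from 1 to 2 with the name form or without a filter, and from 0 (without GFP liver 1) to 5 (without Cre liver 1). Under the name form, calls among members went from 0 to 1 with DESeq2. The cause of these shifts was not tested. With 3 livers a group and counts of 0 to 35, Car4, Car9 and Car13 were measured with little precision.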
